A study of Chlamydomonas reinhardtii with 18 samples.

Results

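The 45 genes described here are the chaperones and chaperonins of the green alga Chlamydomonas reinhardtii, with 2 heat shock transcription factors (HSF1 and HSF2), out of 17693 genes in an RNA sequencing table. They were chosen by symbol: every gene whose symbol begins with HSP, BIP, CPN, CCT, DNJ, CDJ, CGE, CLPB, ERJ or HSF and a number, leaving out the HSP22 small heat shock proteins. No ERJ symbol was matched. From textbook knowledge of the symbols, 14 were placed in the cytosol and nucleus, 4 in the endoplasmic reticulum (ER), 12 in the plastid and 4 in the mitochondrion. The other 11 were given no compartment.

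RNA was sequenced from the wild type, WT (CC-4532), and from tpt10b, a knockout of CreTPT10 in the CC-4532 background. Both genotypes grew in TAP medium, which contains acetate, under low light and were then placed in complete darkness. Cells were taken at 0 h, before the move to darkness, and at 24 h and 48 h of darkness, giving 6 groups of 3 replicates. All mutant libraries come from the line named tpt10b, and no second allele or rescued line was analysed here. The titles call the replicates biological, and nothing says whether each was a separate culture, so the p-values measure only the spread between these samples. Values are TPM, the length-corrected share of each library's reads that a gene takes, so less RNA of a gene per cell and fewer cells that make it cannot be told apart.

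Chaperones bind proteins that are not yet folded or have lost their fold. HSP70 proteins hold exposed stretches of a client in an ATP-driven cycle that J-domain proteins start and nucleotide exchange factors of the GrpE type complete; HSP90 proteins act on later folding steps, and ClpB proteins pull aggregates apart. Chaperonins are double rings that enclose a client: the CCT ring of the cytosol folds actin and tubulin, and the CPN60 rings of plastid and mitochondrion work with small co-chaperonin lids and are known in the plastid for folding the large subunit of Rubisco. BiP is the HSP70 of the ER, and its transcript is a widely used reporter of protein folding load there. HSF1 is the regulator of the heat shock response in this alga.

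After TPM was multiplied by gene length and divided by the smallest such product in each library, taken as 1 read, 100% of the values were whole numbers of reads to within 0.01, and the libraries summed to 59603478 to 87965038 reads. Cre08.g379350, the locus that background knowledge and not the files assigns to CreTPT10, stood at 32.8 to 85.4 TPM in the 9 WT libraries and at 1.28 to 8.28 TPM in the 9 tpt10b libraries. The tpt10b libraries at 24 h detected fewer genes (15490 to 16231 above 0) than those of any other group (16316 to 16901). Among them, replicate 2 detected the most (16231 against 15490 and 15572). Their Pearson r across genes was 0.975 to 0.981, below every pair within WT at 0 h or 24 h and within the other tpt10b groups. WT replicate 2 at 48 h correlated less well with the other libraries of its group (r = 0.963 and 0.970) than those did with each other (0.992). Because TPM is a share, the median gene also moved between groups. The median log2 difference of all 14731 genes tested was 0.41 for tpt10b against WT at 0 h and -0.53 for tpt10b at 24 h against 0 h. Each comparison was therefore repeated after rescaling the libraries to a common median ratio (median-of-ratios), which brought these 2 medians to -0.03 and -0.06. "Higher", "lower", "rose" and "fell" below mean a limma adjusted p under 0.05 on log2(TPM + 1), adjusted over all genes tested, and a call that the rescaling removed is named as such. HSP70F, at 0.173 to 0.984 TPM, did not pass the filter of 1 TPM in 3 libraries, so 44 of the 45 genes were tested.

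In WT cells at 0 h the most abundant chaperone transcript was HSP90A (Cre09.g386750), the cytosolic HSP90, with a mean of 288 TPM, followed by HSP70A with 238 TPM. The order changed with time in darkness. HSP70A led in WT at 24 h with a mean of 534 TPM, and BIP1 led at 48 h with 271 TPM. In tpt10b HSP90A led at 0 h with 372 TPM, the plastid chaperonin subunit CPN60A at 24 h with 314 TPM, and HSP70A at 48 h with 309 TPM. Together the 45 genes made up 0.297% of all TPM in WT at 0 h, 0.429% at 24 h and 0.290% at 48 h, and 0.377%, 0.313% and 0.285% in tpt10b. The WT libraries at 24 h (0.392% to 0.453%) lay above the libraries of every other group.

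**Figure D1:**
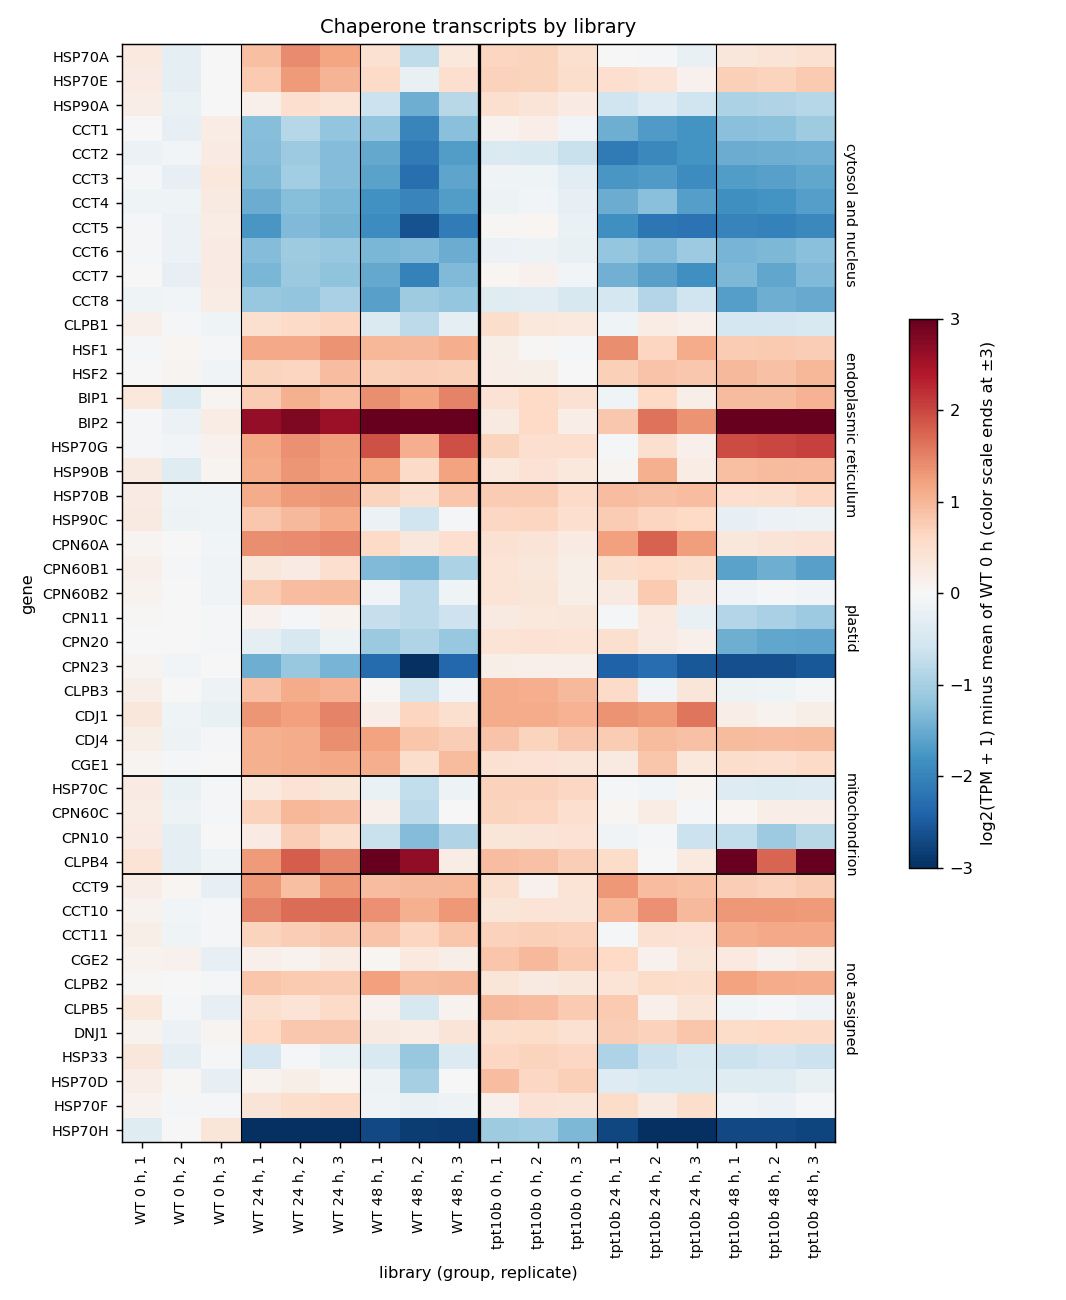
Each row is a gene and each column a library, grouped by genotype and time; the color gives log2(TPM + 1) minus the mean of the WT libraries at 0 h, with a color scale that ends at ±3. CCT1 to CCT8 and HSP70H turn to low values in darkness in both genotypes, while BIP2, HSP70G and HSF1 stand at high values by 48 h.

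The first question was how these genes responded to darkness in the wild type. Between 0 h and 24 h, 28 of the 44 genes rose and 11 fell, where 40.6% of all genes rose and 25.8% fell. The rises took in all 4 ER genes, all 4 mitochondrial genes and 9 of 12 plastid genes, and the falls took in all 8 CCT subunits. The median member changed by 0.74 on the log2 scale, against 0.21 for all genes tested. After rescaling 24 rose and 12 fell (31.5% and 34.5% of all genes), with a median of 0.47 against 0.00. The rises then took in 4 ER, 2 mitochondrial and 8 plastid genes, and the falls still took in all 8 CCT subunits.

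The second day went another way. Between 24 h and 48 h, 25 members fell and 2 rose in WT, against 24.7% and 16.8% of all genes, and after rescaling 23 fell and 5 rose (19.7% and 22.5%). The falls included 10 of 12 plastid genes and 3 of 4 mitochondrial genes, on either scale. The genes that rose were BIP2 and HSP70H, and 5 rose without WT replicate 2 at 48 h. Set against 0 h, WT at 48 h had 17 members higher and 18 lower, against 37.7% and 32.4% of all genes (15 and 23 after rescaling, against 35% and 37.2%).

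In tpt10b the first day looked different. At 24 h against 0 h only 7 members rose and 21 fell, against 18.1% and 57.1% of all genes. This count depends on the scale: after rescaling 20 rose and 12 fell (34.2% and 38.1% of all genes). The 7 that rose on both scales were BIP2, HSF1, HSF2, CPN60A, CCT9, CCT10 and DNJ1, and the call of DNJ1 was lost without tpt10b replicate 1 or 3 at 0 h (adjusted p = 0.0502 and 0.0784) or replicate 3 at 24 h (adjusted p = 0.0898). Between 24 h and 48 h, 8 members rose and 14 fell in tpt10b (46.5% and 20.2% of all genes), or 6 and 24 after rescaling (35.3% and 32.6%). At 48 h against 0 h, 11 were higher and 26 lower (30.1% and 44.1% of all genes), and after rescaling 16 and 24 (37% and 36.9%).

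In WT an ER gene, BIP2, had the largest rise of the 44 genes in log2(TPM + 1) at both dark times. As a ratio of mean TPM, CCT10 rose more at 24 h (11.9 against 6.67), from a mean of 0.233 TPM at 0 h. BIP2 (Cre02.g080600), one of 2 genes for the ER HSP70 BiP, stood at 15.4, 13.7 and 18.4 TPM in WT at 0 h, at 104, 116 and 97.7 TPM at 24 h, and at 257, 179.7 and 255 TPM at 48 h. The tpt10b libraries ran at 19.2, 24.2 and 18.2 TPM, then at 28.3, 50.3 and 41.7 TPM, then at 166, 167 and 176 TPM. The 3 times did not overlap in either genotype, and at 24 h every tpt10b library lay below every WT library. The log2 rise in WT was 2.67 ± 0.18 (SE, n = 3 per group, limma adjusted p = 1.08e-09) at 24 h and 3.77 ± 0.18 (adjusted p = 1.07e-11) at 48 h. In tpt10b it was 0.91 ± 0.18 (adjusted p = 2.54e-04) and 3.00 ± 0.18 (adjusted p = 1.60e-10). The difference between genotypes at 24 h was -1.41 ± 0.18 (adjusted p = 5.28e-05), or -1.05 after rescaling. At 48 h it was -0.42 (adjusted p = 0.152).

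BIP1 (Cre02.g080700), the other BiP gene, started higher and moved less. It had 132, 79.3 and 111 TPM in WT at 0 h, 179, 221 and 197 TPM at 24 h, and 276, 238 and 297 TPM at 48 h. In tpt10b they were 141, 159 and 145, then 95.7, 159 and 118, then 205, 204 and 218. WT levels climbed without overlap between the times, whereas tpt10b at 24 h overlapped its own 0 h. BIP1 rose in WT by 0.91 ± 0.18 at 24 h (limma adjusted p = 2.03e-04) and in tpt10b by 0.49 ± 0.18 at 48 h (adjusted p = 0.0178), a call lost without tpt10b replicate 1 at 0 h (adjusted p = 0.0535) or replicate 3 at 48 h (adjusted p = 0.0519). The ratio of BIP2 to BIP1 within a library, which does not depend on the scaling, had means of 0.152, 0.532 and 0.847 at the 3 times in WT and of 0.138, 0.321 and 0.811 in tpt10b. At 24 h it ran from 0.496 to 0.578 in WT and from 0.296 to 0.352 in tpt10b. How the counting shared reads between these similar genes is not stated, which limits how well the pair can be told apart.

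HSP70G (Cre10.g439900), an HSP70-family protein assigned to the ER, stood at 44.6, 43.2 and 50.8 TPM in WT at 0 h, at 104, 120.1 and 112 TPM at 24 h, and at 175, 99.0 and 180.2 TPM at 48 h. The tpt10b libraries held 74.4, 65.9 and 66.3 TPM, then 44.2, 64.5 and 51.1 TPM, then 180.4, 187 and 193 TPM. At 24 h the WT libraries were all above those of 0 h, and the tpt10b libraries were all below theirs. The WT rise at 24 h was 1.26 ± 0.18 (limma adjusted p = 8.60e-06). The tpt10b difference was -0.38 (adjusted p = 0.0656) as deposited and 0.24 (adjusted p = 0.145) after rescaling, followed by a rise of 1.81 ± 0.18 from 24 h to 48 h (adjusted p = 2.38e-07).

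HSP90B (Cre02.g080650), the HSP90 of the ER, had 76.3, 48.9 and 67.3 TPM in WT at 0 h, 137, 159 and 148 TPM at 24 h and 145, 93.8 and 147 TPM at 48 h. The mutant libraries held 79.0, 85.6 and 79.0 TPM, then 67.0, 133 and 73.7 TPM, then 119.6, 122 and 122 TPM. The WT libraries of both dark times lay above those of 0 h, while tpt10b at 24 h scattered around its 0 h level with 1 high library. HSP90B rose in WT by 1.22 ± 0.22 at 24 h (limma adjusted p = 9.83e-05). In the RefSeq annotation of Chlamydomonas_reinhardtii_v5.5, BIP2, HSP90B and BIP1 follow each other on chromosome 2 with 0 genes between neighbours.

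Summed over the 4 genes, the ER share of the chaperone TPM had means of 7.82%, 13.2% and 26.8% at the 3 times in WT and of 8.46%, 9.78% and 24.1% in tpt10b. It ran from 12.6% to 13.6% in WT and from 7.74% to 11.9% in tpt10b at 24 h, and from 26.1% to 27.9% and from 23.9% to 24.2% at 48 h. The 2 genotypes did not overlap at either dark time, and 3 libraries against 3 cannot give an exact permutation p under 0.1.

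**Figure D2:**
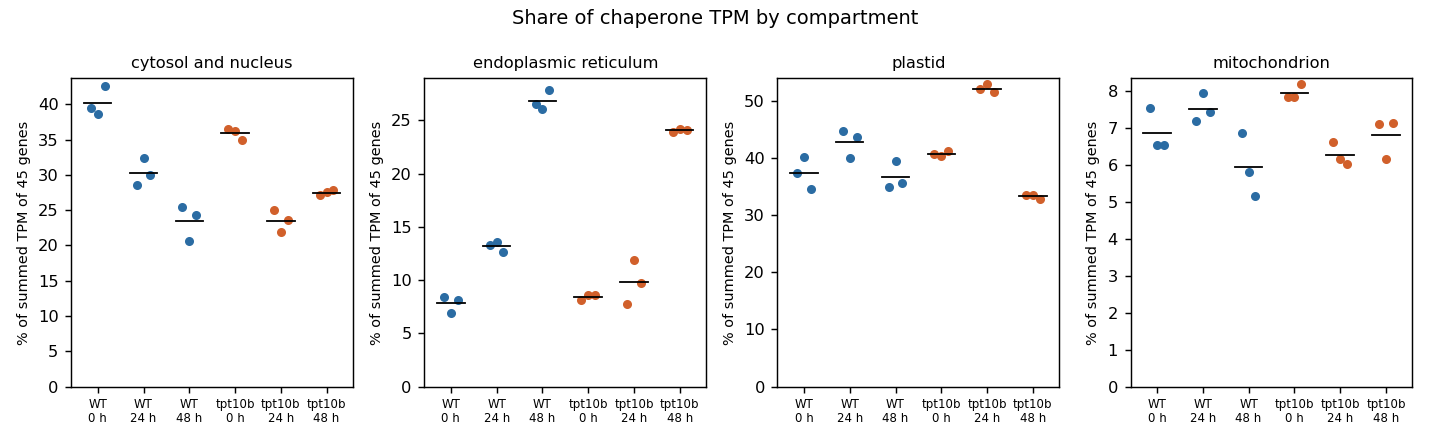
Each panel shows 1 compartment; the y axis is its percentage of the summed TPM of the 45 genes, points are libraries and the x axis gives the 6 groups. The ER share climbs from 6.91% to 8.40% in WT at 0 h to 26.1% to 27.9% at 48 h, and the plastid share is highest in tpt10b at 24 h (51.5% to 52.9%).

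In the cytosol, HSP70A (Cre08.g372100), the main cytosolic HSP70, was lower in tpt10b than in WT after 1 day. It stood at 289, 191 and 234 TPM in WT at 0 h, at 442, 627 and 533 TPM at 24 h, and at 322, 139 and 291 TPM at 48 h. Mutant libraries were at 368, 370.3 and 325 TPM, then at 234, 228 and 199 TPM, then at 299, 305 and 324 TPM. WT peaked at 24 h, where tpt10b was at its lowest, and the low WT library at 48 h is the replicate 2 that stood apart. HSP70A rose by 1.17 ± 0.23 in WT at 24 h (limma adjusted p = 2.49e-04) and fell by 0.68 ± 0.23 in tpt10b (adjusted p = 0.0129), a fall that rescaling reduced to -0.05 (adjusted p = 0.786). At 24 h tpt10b was lower than WT by a log2 difference of -1.26 ± 0.23 (adjusted p = 5.75e-04), or -0.90 after rescaling (adjusted p = 6.88e-04). The interaction at 24 h was -1.85 ± 0.33 (adjusted p = 2.01e-04), or -0.93 after rescaling (adjusted p = 0.00433). This interaction takes in the 0 h level, where HSP70A was higher in tpt10b as deposited, without overlap. That 0 h call was lost after rescaling and in 4 of 6 fits that left out 1 replicate (adjusted p up to 0.157).

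HSP90A had 328, 249 and 287 TPM in WT at 0 h, 317, 403 and 377 TPM at 24 h and 182, 103 and 161 TPM at 48 h. Its tpt10b libraries held 397, 377 and 342 TPM, then 187, 217 and 189.6 TPM, then 147, 151 and 158 TPM. WT was low at 48 h alone, and tpt10b was lower at 24 h than at 0 h and lowest at 48 h, without overlap between its times. At 24 h the WT difference was 0.35 (limma adjusted p = 0.0732), whereas HSP90A fell in tpt10b by 0.91 ± 0.17 (adjusted p = 9.36e-05; -0.27 after rescaling, adjusted p = 0.0325). By 48 h it had fallen by 0.98 ± 0.17 in WT (adjusted p = 4.56e-05) and by 1.28 ± 0.17 in tpt10b (adjusted p = 1.91e-06). Within libraries the ratio of HSP90A to HSP70A had means of 1.22, 0.689 and 0.620 in WT and of 1.05, 0.901 and 0.491 in tpt10b.

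HSP70E (Cre16.g677000), an HSP110-type relative of HSP70, had 51.5, 35.9 and 43.6 TPM in WT at 0 h, 75.4, 106 and 88.0 TPM at 24 h and 64.3, 36.7 and 61.4 TPM at 48 h. Its tpt10b values were 70.3, 69.6 and 62.5 TPM, then 61.9, 57.8 and 46.9 TPM, then 71.6, 69.1 and 74.8 TPM. As with HSP70A, the highest libraries were those of WT at 24 h and the groups at 24 h did not overlap. Its WT rise at 24 h was 1.03 ± 0.19 (limma adjusted p = 1.11e-04), and it was lower in tpt10b by -0.68 ± 0.19 at 24 h (adjusted p = 0.00845), a call lost after rescaling (-0.32, adjusted p = 0.0527) and without WT replicate 2 at 24 h (-0.55, adjusted p = 0.0516).

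CLPB1 (Cre11.g467644), the cytosolic HSP101 disaggregase, was scarce, with 9.74, 8.47 and 7.80 TPM in WT at 0 h, 12.5, 13.4 and 14.0 TPM at 24 h and 6.11, 4.56 and 6.82 TPM at 48 h. The corresponding tpt10b values were 12.8, 11.1 and 10.8 TPM, then 7.79, 10.2 and 9.77 TPM, then 5.65, 5.77 and 5.99 TPM. It went up and then below its starting level in WT, with no overlap between times. It rose by 0.57 ± 0.14 in WT at 24 h (limma adjusted p = 0.0016) and fell below 0 h at 48 h in both genotypes, by 0.51 ± 0.14 in WT (adjusted p = 0.00333) and 0.88 ± 0.14 in tpt10b (adjusted p = 1.86e-05).

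Both heat shock factors rose in darkness in both genotypes. HSF1 (Cre09.g387150) stood at 15.8, 16.9 and 15.8 TPM in WT at 0 h, at 36.5, 36.5 and 43.0 TPM at 24 h and at 33.3, 32.5 and 35.8 TPM at 48 h. The tpt10b libraries ran at 18.3, 16.5 and 15.4 TPM, then at 44.2, 26.0 and 36.2 TPM, then at 27.95, 28.8 and 27.6 TPM. All dark libraries lay above all 0 h libraries. HSF1 rose at 24 h by 1.20 ± 0.14 in WT (limma adjusted p = 1.05e-06) and by 1.01 ± 0.14 in tpt10b (adjusted p = 6.56e-06), and no genotype difference passed the threshold in TPM as deposited (adjusted p = 0.802, 0.425 and 0.255 at the 3 times). After rescaling HSF1 was lower in tpt10b at 0 h (-0.48, adjusted p = 0.0249).

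HSF2 (Cre07.g354500) had 11.3, 11.9 and 10.4 TPM in WT at 0 h, 18.4, 18.1 and 22.2 TPM at 24 h and 19.1, 19.2 and 18.9 TPM at 48 h. The tpt10b values were 12.9, 12.8 and 11.3 TPM, then 18.9, 21.0 and 20.4 TPM, then 22.8, 21.3 and 23.1 TPM. As for HSF1, no dark library overlapped a 0 h library, and HSF2 rose at 24 h by 0.75 ± 0.11 in WT (limma adjusted p = 6.94e-06) and by 0.67 ± 0.11 in tpt10b (adjusted p = 2.13e-05).

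**Figure D3:**
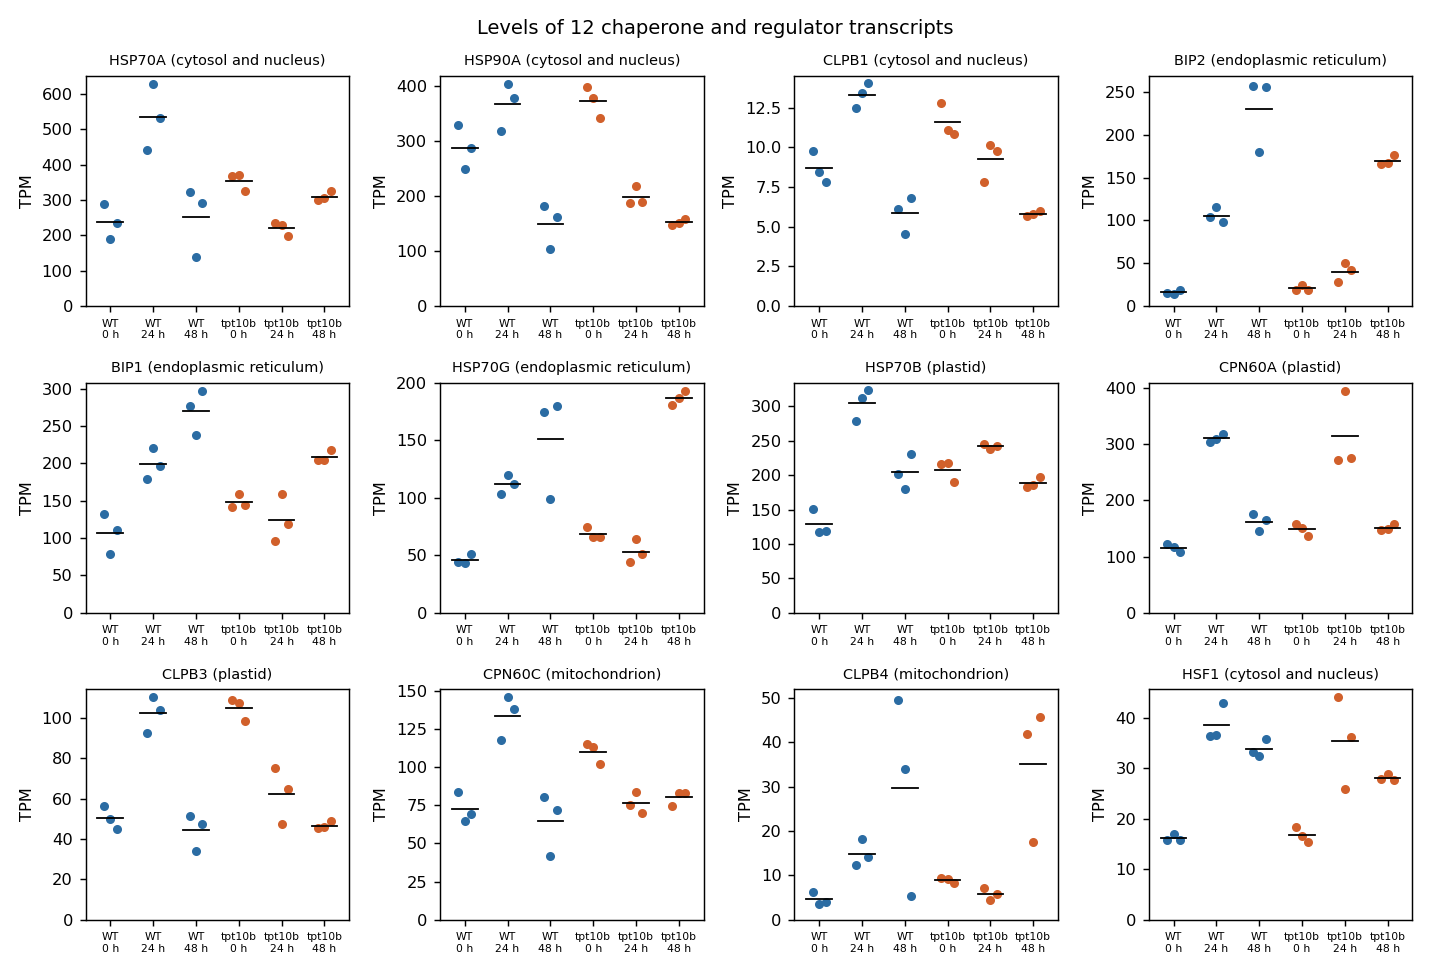
Panels show TPM of 12 transcripts, with points for libraries and the 6 groups on the x axis. BIP2 climbs at each time, HSP70A peaks in WT at 24 h (442 to 627 TPM) and stands at 199 to 234 TPM in tpt10b at that time.

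The CCT chaperonin fell as a group. All 8 subunits, CCT1 to CCT8, fell in WT at 24 h and stayed lower at 48 h, with a median log2 difference of -1.22 at 24 h and -1.70 at 48 h against medians of 0.21 and 0.09 for all genes. In tpt10b 7 of 8 fell at 24 h and all 8 were lower at 48 h, with medians of -1.51 and -1.34 against -0.53 and -0.20. These counts were the same after rescaling. Of all genes, 25.8% and 32.4% were lower in WT at 24 h and 48 h, and 57.1% and 44.1% in tpt10b. After rescaling these shares were 34.5% and 37.2% in WT, and 38.1% and 36.9% in tpt10b. Summed over the 8 genes, CCT transcripts made up 0.0591% of all TPM in WT at 0 h, 0.0241% at 24 h and 0.0177% at 48 h, and 0.0520%, 0.0194% and 0.0194% in tpt10b. In WT the largest fall was that of CCT5 (Cre03.g156750), from 112, 101 and 133 TPM at 0 h to 33.5, 44.8 and 42.0 TPM at 24 h and 30.3, 17.9 and 25.9 TPM at 48 h (-1.50 ± 0.17 at 24 h, limma adjusted p = 5.13e-07). The subunit with the lowest mean in WT at 0 h was CCT7, at 50.3, 42.6 and 59.6 TPM in WT at 0 h and 19.0, 22.9 and 21.4 TPM at 24 h.

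CCT8 (Cre03.g168450) departed from the rest in the mutant. It stood at 53.6, 55.0 and 68.5 TPM in WT at 0 h, at 26.0, 25.4 and 29.4 TPM at 24 h and at 18.4, 27.4 and 25.7 TPM at 48 h. Mutant libraries were at 45.5, 46.3 and 41.9 TPM, then at 40.7, 31.4 and 38.7 TPM, then at 17.95, 20.5 and 20.0 TPM. At 24 h every tpt10b library lay above every WT library, and CCT8 fell in tpt10b between 24 h and 48 h (-0.88 ± 0.14, limma adjusted p = 4.66e-05). The 0 h to 24 h difference in tpt10b was -0.27 (adjusted p = 0.0991) as deposited. After rescaling the tpt10b level of CCT8 at 24 h lay above that at 0 h. Its difference at 48 h was then -1.24 against 24 h and -0.89 against 0 h. At 24 h CCT8 was higher in tpt10b by 0.44 ± 0.14 (adjusted p = 0.024; 0.79 after rescaling, adjusted p = 0.00387), a call in TPM as deposited that was lost without WT replicate 1 or 2 or tpt10b replicate 1 or 3 at that time (adjusted p = 0.0628, 0.0839, 0.0844 and 0.0748). The interaction at 24 h was 0.83 ± 0.20 (adjusted p = 0.00235) and 1.73 after rescaling (adjusted p = 1.55e-04). As a percentage of the TPM of CCT1 to CCT8, CCT8 ran from 9.63% to 12.2% in WT and from 16.6% to 20.5% in tpt10b at 24 h. WT at 48 h ran from 9.69% to 18.4%, its highest value being that of replicate 2.

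CCT2 (Cre09.g416750) differed between the genotypes already in the light. It had 88.1, 93.6 and 118 TPM in WT and 72.6, 71.5 and 62.2 TPM in tpt10b at 0 h, without overlap. At 24 h it had 39.9, 46.1 and 39.5 TPM in WT and 22.0, 25.3 and 27.7 TPM in tpt10b, and at 48 h 33.3, 21.9 and 30.4 TPM against 34.7, 35.4 and 36.0 TPM. It was lower in tpt10b at 0 h by -0.52 ± 0.15 (limma adjusted p = 0.0059) and at 24 h by -0.72 ± 0.15 (adjusted p = 0.00116), on both scales. CCT2 was not alone in this at 0 h. CCT8 was also lower there on both scales (-0.39, or -0.94 after rescaling), and after rescaling every subunit from CCT1 to CCT8 was. CCT4 (Cre05.g234639), among the 3 largest WT falls at 24 h, had 60.5, 60.7 and 80.0 TPM in WT at 0 h and 22.9, 26.7 and 25.1 TPM at 24 h, a fall of 1.38 ± 0.13 (adjusted p = 5.86e-08).

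**Figure D4:**
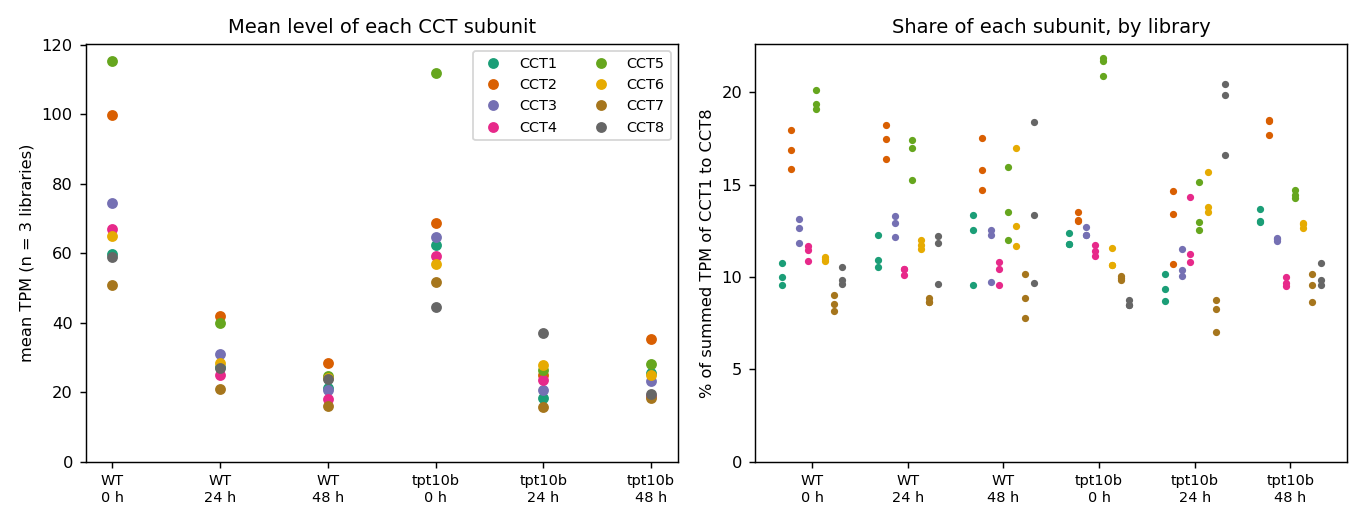
The left panel gives the mean TPM of each CCT subunit in the 6 groups (n = 3 libraries), and the right panel each subunit's percentage of the summed TPM of CCT1 to CCT8, with points for libraries. In TPM as deposited all subunit means lie below their 0 h level in darkness, least so for CCT8 in tpt10b at 24 h (37.0 against 44.6 TPM). CCT8 there makes up 16.6% to 20.5% of the sum.

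Prefoldin, which hands clients to CCT, moved in the same direction in WT. The 5 prefoldin genes in the table (PFD2 to PFD6) all fell at 24 h, with log2 differences between -0.46 for PFD2 and -1.28 for PFD5, and they fell on both scales. Of all genes 25.8% fell in that comparison, or 34.5% after rescaling. At 24 h in tpt10b the differences as deposited were -0.73 for PFD2, -0.45 for PFD3, -0.28 for PFD4, -2.08 for PFD5 and -1.71 for PFD6, and all but that of PFD4 passed the threshold. After rescaling they were -0.10 for PFD2, 0.17 for PFD3, 0.33 for PFD4, -1.47 for PFD5 and -1.09 for PFD6, of which those of PFD5 and PFD6 passed it. Of all genes 57.1% fell in tpt10b at 24 h as deposited, and 38.1% after rescaling.

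In the plastid, the HSP70 system and the disaggregase rose in WT on the first day. HSP70B (Cre06.g250100), the stromal HSP70, stood at 151, 117 and 119 TPM in WT at 0 h, 279, 312 and 324 TPM at 24 h, and 202, 180.1 and 230.0 TPM at 48 h. The tpt10b libraries ran at 216, 217 and 190.3 TPM, then at 246, 237 and 242 TPM, then at 182, 186 and 198 TPM. WT at 24 h lay above every other group, while the tpt10b groups lay close together. HSP70B rose in WT at 24 h by 1.25 ± 0.11 (limma adjusted p = 3.68e-08). In tpt10b the difference was 0.22 (adjusted p = 0.0896), or 0.85 after rescaling (adjusted p = 2.44e-07). The interaction at 24 h was -1.03 ± 0.16 (adjusted p = 9.08e-05), a call lost after rescaling (-0.11, adjusted p = 0.512).

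CDJ1 (Cre12.g507650), the J-domain partner of HSP70B, had 43.8, 31.4 and 29.1 TPM in WT at 0 h, 86.8, 81.1 and 97.4 TPM at 24 h and 39.5, 53.8 and 48.3 TPM at 48 h. For tpt10b the values were 74.9, 75.7 and 71.4 TPM, then 88.9, 83.8 and 106 TPM, then 39.5, 36.6 and 38.7 TPM. The mutant thus began above WT and ended no higher. At 0 h CDJ1 was higher in tpt10b by 1.09 ± 0.14 (limma adjusted p = 2.36e-05; 0.54 after rescaling, adjusted p = 0.0181), and the interaction at 48 h was -1.38 ± 0.21 (adjusted p = 2.86e-04; -0.98 after rescaling, adjusted p = 0.00602). The ratio of CDJ1 to HSP70B within libraries had means of 0.268, 0.290 and 0.235 in WT and of 0.357, 0.385 and 0.203 in tpt10b. At 0 h it ran from 0.245 to 0.290 in WT and from 0.347 to 0.375 in tpt10b.

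CGE1 (Cre07.g341600), the GrpE-type exchange factor of HSP70B, had 127, 115 and 119 TPM in WT at 0 h, 253, 262 and 268 TPM at 24 h and 257, 174 and 232 TPM at 48 h. Its tpt10b values were 165, 163 and 157 TPM, then 144, 213 and 151 TPM, then 172, 171 and 180.1 TPM. WT stayed high through the second day, and the tpt10b groups at 24 h and 48 h spanned or bordered their 0 h level. CGE1 rose in WT by 1.11 ± 0.14 at 24 h (limma adjusted p = 2.14e-06), and the tpt10b difference was 0.05 (adjusted p = 0.773) or 0.68 after rescaling (adjusted p = 6.55e-05). CDJ4, another plastid J-domain protein, ranged from 4.01 to 13.5 TPM over all libraries and rose in WT at 24 h by 1.20 ± 0.14 (adjusted p = 6.05e-07).

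CLPB3 (Cre02.g090850), the plastid disaggregase, had 56.4, 49.8 and 44.7 TPM in WT at 0 h, 92.4, 110.3 and 104 TPM at 24 h and 51.2, 34.0 and 47.5 TPM at 48 h. In tpt10b it had 109, 107 and 98.5 TPM, then 75.2, 47.2 and 64.5 TPM, then 45.2, 45.9 and 48.9 TPM. In TPM as deposited the level of WT at 24 h was already present in tpt10b at 0 h, and the order of the genotypes turned over between these times without overlap. After rescaling, the difference from WT at 0 h was 0.50 for tpt10b at 0 h and 0.72 for WT at 24 h. CLPB3 was higher in tpt10b at 0 h by 1.05 ± 0.16 (limma adjusted p = 7.16e-05; 0.50 after rescaling, adjusted p = 0.00727) and lower at 24 h by -0.73 ± 0.16 (adjusted p = 0.00221; -0.37 after rescaling, adjusted p = 0.0353). The interaction at 24 h was -1.78 ± 0.23 (adjusted p = 2.65e-05; -0.87 after rescaling).

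HSP90C (Cre12.g514850), the plastid HSP90, had 44.2, 32.3 and 33.3 TPM in WT at 0 h, 64.6, 72.3 and 79.9 TPM at 24 h and 31.8, 23.8 and 34.8 TPM at 48 h. Its tpt10b libraries held 56.5, 57.4 and 51.6 TPM, then 62.4, 57.1 and 54.9 TPM, then 30.2, 32.1 and 32.5 TPM. The WT libraries at 24 h lay above all others, and the genotypes overlapped at 48 h. The WT rise was 0.97 ± 0.14 (limma adjusted p = 1.01e-05). In tpt10b the 24 h difference was 0.07 (adjusted p = 0.643), but 0.70 after rescaling (adjusted p = 2.29e-06), and the rescaled interaction was 0.01 (adjusted p = 0.954).

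The transcripts of the plastid chaperonin subunits did not keep their proportions to each other. CPN60A (Cre04.g231222), the alpha subunit, stood at 122, 116 and 108 TPM in WT at 0 h, at 304, 310.0 and 317 TPM at 24 h and at 175, 146 and 165 TPM at 48 h. Mutant libraries were at 158, 150.4 and 137 TPM, then at 273, 395 and 275 TPM, then at 147, 149.8 and 157 TPM. It rose at 24 h without overlap in both genotypes, by 1.42 ± 0.12 in WT (limma adjusted p = 2.07e-08) and 1.06 ± 0.12 in tpt10b (adjusted p = 6.98e-07).

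CPN60B2 (Cre07.g339150), a beta subunit, had 150.5, 137 and 129.9 TPM in WT at 0 h, 235, 264 and 271 TPM at 24 h and 131, 80.7 and 127 TPM at 48 h. The corresponding tpt10b values were 185, 179 and 156 TPM, then 168, 241 and 168 TPM, then 128, 135 and 131 TPM. Here 1 of the 3 mutant libraries at 24 h reached the WT range. CPN60B2 rose by 0.88 ± 0.16 in WT at 24 h (limma adjusted p = 1.58e-04), and was lower in tpt10b than in WT at that time by -0.43 ± 0.16 (adjusted p = 0.0453), a call lost after rescaling (-0.07), without a filter (adjusted p = 0.0534) and without WT replicate 2 or 3 or tpt10b replicate 1 or 3 (adjusted p = 0.116, 0.124, 0.145 and 0.160).

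CPN60B1 (Cre17.g741450), the other beta subunit, had 55.7, 48.6 and 46.7 TPM in WT at 0 h, 64.1, 59.8 and 71.3 TPM at 24 h and 19.3, 18.7 and 25.7 TPM at 48 h. For tpt10b the values were 67.0, 64.0 and 56.8 TPM, then 72.9, 76.5 and 72.5 TPM, then 15.9, 17.6 and 15.5 TPM. The 24 h libraries lay above those of 0 h, and the 48 h libraries lay below all earlier ones in both genotypes. The first-day rise in WT (0.36 ± 0.12, limma adjusted p = 0.0145) became 0.08 after rescaling (adjusted p = 0.558) and was lost without WT replicate 3 at 0 h (adjusted p = 0.0605) or at 24 h (adjusted p = 0.0703). From 24 h to 48 h it fell by 1.58 ± 0.12 in WT (adjusted p = 5.89e-08), and the difference in tpt10b was -2.11 ± 0.12 (adjusted p = 6.96e-10). The ratio of CPN60B1 to CPN60A within libraries went from means of 0.436 to 0.210 and 0.131 in WT and from 0.422 to 0.242 and 0.108 in tpt10b, with no overlap between 0 h and either dark time.

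The co-chaperonins were lower at 48 h than at 0 h in both genotypes, each on its own schedule. CPN20 (Cre08.g358562) stood at 198, 199 and 190.5 TPM in WT at 0 h, at 163, 139.8 and 177 TPM at 24 h and at 89.6, 104 and 88.3 TPM at 48 h. In tpt10b it stood at 259, 265 and 259 TPM, then at 275, 238 and 216 TPM, then at 69.9, 66.0 and 65.0 TPM. The mutant was above WT at 0 h and 24 h and below it at 48 h, each time without overlap. The tpt10b libraries of 0 h and 24 h overlapped as deposited, and after rescaling the 24 h level lay above that of 0 h. The rescaled difference in tpt10b at 48 h was -2.20 against 24 h and -1.68 against 0 h. CPN20 was higher in tpt10b at 24 h by 0.60 ± 0.11 (limma adjusted p = 4.77e-04; 0.96 after rescaling) and lower at 48 h by -0.48 ± 0.11 (adjusted p = 0.0151; -0.64 after rescaling). The higher level at 0 h (0.41 ± 0.11, adjusted p = 0.00355) became -0.14 after rescaling (adjusted p = 0.493). The call at 48 h was lost without WT replicate 2 (adjusted p = 0.0609), without tpt10b replicate 2 or 3 (adjusted p = 0.0635 and 0.0775) and in a fit of the compared groups alone (adjusted p = 0.0789).

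CPN23 (Cre12.g505850) fell from 72.0, 64.8 and 68.6 TPM in WT at 0 h to 24.1, 30.5 and 25.4 TPM at 24 h and 13.0, 5.47 and 12.7 TPM at 48 h. In tpt10b it fell from 77.5, 76.0 and 75.9 TPM to 11.9, 13.2 and 10.99 TPM, and stood at 10.1, 10.2 and 10.9 TPM at 48 h. The mutant at 24 h overlapped the range of WT at 48 h. The difference at 24 h was -1.33 ± 0.21 in WT (limma adjusted p = 1.96e-05) and -2.58 ± 0.21 in tpt10b (adjusted p = 7.24e-09), and the genotype difference at 24 h was -1.08 ± 0.21 (adjusted p = 7.40e-04; -0.74 after rescaling, adjusted p = 0.00186). The interaction at 24 h was -1.24 ± 0.29 (adjusted p = 0.00154) and was lost after rescaling (-0.35, adjusted p = 0.214). CPN11 had group ranges of 159.8 to 169, 159 to 179 and 94.7 to 106 TPM in WT and of 198 to 206, 140.3 to 199.97 and 76.8 to 88.5 TPM in tpt10b. Its difference in tpt10b at 24 h depended on the scale, at -0.30 (adjusted p = 0.0208) as deposited and 0.33 (adjusted p = 0.0307) after rescaling, and the first was lost without tpt10b replicate 3 at 0 h (adjusted p = 0.0538) or replicate 1 or 3 at 24 h (adjusted p = 0.0595 and 0.134). Within libraries the ratio of CPN23 to CPN11 had means of 0.419, 0.157 and 0.102 in WT and of 0.378, 0.0735 and 0.126 in tpt10b.

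Of the 4 mitochondrial genes, HSP70C, CPN60C and CPN10 fell in WT from 24 h to 48 h, and CLPB4 did not pass the threshold. HSP70C (Cre09.g393200), the mitochondrial HSP70, had 58.1, 42.2 and 47.9 TPM in WT at 0 h, 59.8, 66.9 and 62.8 TPM at 24 h and 42.4, 29.2 and 44.0 TPM at 48 h. The mutant libraries held 79.2, 79.3 and 76.0 TPM, then 47.2, 46.3 and 52.0 TPM, then 37.4, 36.5 and 37.4 TPM. The WT libraries at 24 h lay above those of 0 h and 48 h, and tpt10b stepped down at each time without overlap. The WT rise of 0.36 ± 0.14 (limma adjusted p = 0.0297) became 0.07 after rescaling (adjusted p = 0.509) and was lost without WT replicate 2 (adjusted p = 0.145) or 3 (adjusted p = 0.0735) at 0 h or replicate 2 (adjusted p = 0.0910) or 3 (adjusted p = 0.0605) at 24 h. In tpt10b at 24 h against 0 h the difference was -0.68 ± 0.14 (adjusted p = 2.69e-04) as deposited and -0.05 after rescaling (adjusted p = 0.611).

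CPN60C (Cre06.g309100), the mitochondrial CPN60, had 83.9, 64.6 and 69.4 TPM in WT at 0 h, 118, 146 and 138 TPM at 24 h and 80.3, 41.8 and 71.7 TPM at 48 h. In tpt10b it had 115, 113 and 102 TPM, then 75.2, 83.8 and 70.2 TPM, then 74.8, 83.1 and 83.1 TPM. WT peaked at 24 h, whereas the mutant was highest at 0 h. CPN60C rose in WT by 0.88 ± 0.18 (limma adjusted p = 3.39e-04) and was lower in tpt10b at 24 h by -0.80 ± 0.18 (adjusted p = 0.0023; -0.44 after rescaling, adjusted p = 0.00756). In tpt10b at 24 h against 0 h it was lower as deposited (-0.53, adjusted p = 0.0134) and differed by 0.10 after rescaling (adjusted p = 0.442).

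CPN10 (Cre03.g178450), the co-chaperonin of CPN60C, had 91.7, 64.2 and 77.6 TPM in WT at 0 h, 92.0, 128 and 111 TPM at 24 h and 48.4, 30.7 and 41.0 TPM at 48 h. The corresponding tpt10b values were 99.4, 101 and 105 TPM, then 71.8, 75.7 and 48.9 TPM, then 45.5, 35.4 and 42.9 TPM. Both genotypes ended low, and the mutant was below WT at 24 h in every library. It was lower in tpt10b at 24 h by -0.76 ± 0.19 (limma adjusted p = 0.00445; -0.40 after rescaling, adjusted p = 0.0358), and fell in WT from 24 h to 48 h by 1.45 ± 0.19 (adjusted p = 1.37e-05). Its WT rise at 24 h of 0.50 ± 0.19 (adjusted p = 0.0255) was lost after rescaling (0.21, adjusted p = 0.201), without WT replicate 2 or 3 at 0 h (adjusted p = 0.124 and 0.0533) and without replicate 2 or 3 at 24 h (adjusted p = 0.111 and 0.0611).

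CLPB4 (Cre11.g467575), assigned to the mitochondrion, was the most scattered gene. It had 6.29, 3.50 and 4.04 TPM in WT at 0 h, 12.3, 18.2 and 14.2 TPM at 24 h and 49.7, 34.0 and 5.40 TPM at 48 h. For tpt10b the values were 9.49, 9.14 and 8.18 TPM, then 7.04, 4.53 and 5.73 TPM, then 41.9, 17.5 and 45.7 TPM. In WT at 48 h 2 libraries were high and replicate 3 was at the 0 h level. CLPB4 rose in WT at 24 h by 1.52 ± 0.52 (limma adjusted p = 0.0163; 1.27 after rescaling, adjusted p = 0.0463), a call lost without replicate 2 at 0 h (adjusted p = 0.0568) or at 24 h (adjusted p = 0.0538). Its rise in tpt10b between 24 h and 48 h was 2.32 ± 0.52 (adjusted p = 8.62e-04). The WT rise at 48 h of 2.03 ± 0.52 (adjusted p = 0.00214) became 1.08 with library weights (adjusted p = 0.0971).

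Among the 11 genes without a compartment, HSP70H (Cre14.g613550) had the largest fall of all 44 in WT at both dark times. In tpt10b CPN23 fell more, with -2.58 against -2.03 at 24 h and -2.77 against -1.58 at 48 h. HSP70H had 51.9, 67.0 and 87.2 TPM in WT at 0 h, 4.15, 4.08 and 4.65 TPM at 24 h and 9.46, 8.53 and 8.37 TPM at 48 h. The mutant libraries held 31.6, 32.2 and 25.9 TPM, then 9.20, 4.01 and 7.45 TPM, then 9.37, 9.38 and 9.13 TPM. The mutant was below WT at 0 h without overlap, and the genotypes overlapped at 24 h. The difference at 24 h was -3.69 ± 0.21 in WT (limma adjusted p = 9.93e-11) and -2.03 ± 0.21 in tpt10b (adjusted p = 1.57e-07), with an interaction of 1.66 ± 0.29 (adjusted p = 2.13e-04; 2.52 after rescaling). At 0 h HSP70H was lower in tpt10b by -1.15 ± 0.21 (adjusted p = 2.60e-04; -1.69 after rescaling).

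DNJ1 (Cre17.g701500), a J-domain protein, was the most abundant of this set, at 109.9 to 133 TPM in WT at 0 h, 189.8 to 219.6 TPM at 24 h and 145 to 164 TPM at 48 h. Its tpt10b ranges were 172 to 182, 202 to 223 and 184 to 188 TPM. Its interaction at 24 h changed sign with the scale, from -0.49 (limma adjusted p = 0.00481) to 0.43 (adjusted p = 0.0244). HSP33, named for a redox-controlled chaperone of Escherichia coli, ran from 5.57 to 21.9 TPM and fell in tpt10b at 24 h by 1.32 ± 0.19 (limma adjusted p = 8.71e-06). CCT9 and CCT10, in contrast to CCT1 to CCT8, rose in WT at 24 h, by 1.17 ± 0.15 (adjusted p = 2.80e-06) and 1.61 ± 0.12 (adjusted p = 2.46e-09). CCT9 ranged from 5.39 to 17.8 TPM and CCT10 from 0.160 to 2.92 TPM, and both also rose in tpt10b. CCT11 ran from 4.10 to 11.3 TPM, CLPB5 from 2.45 to 8.40 TPM, CGE2 from 1.28 to 4.25 TPM, HSP70D from 0.381 to 4.25 TPM and CLPB2 from 0.611 to 2.97 TPM. CCT11 and CLPB2 also rose in WT at 24 h (0.74 and 0.79) and were higher at 48 h than at 0 h in both genotypes, on both scales. In tpt10b at 24 h CCT11 fell as deposited, and the sign turned after rescaling.

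The second question was where the mutant differed from the wild type at one time. At 0 h 25 of 44 members were higher in tpt10b and 3 lower, against 50.8% and 9.19% of all genes, with a median of 0.38 beside 0.41 for all genes. After rescaling 4 were higher and 11 lower (13.1% and 21.2% of all genes), and the lower ones included all 8 CCT subunits, with a CCT median of -0.72. Calls held on both scales for CDJ1, CLPB3, CLPB5 and CGE2, all higher, and for HSP70H, CCT2 and CCT8, all lower. The call of CCT8 (-0.39, adjusted p = 0.0281 as deposited) was lost without WT replicate 3 (adjusted p = 0.140) or tpt10b replicate 1 or 3 (adjusted p = 0.0534 and 0.0879). CLPB5, at 4.96, 3.57 and 3.05 TPM in WT and 8.40, 8.05 and 7.26 TPM in tpt10b, was higher by 0.89 ± 0.18 (limma adjusted p = 6.91e-04). CGE2, at 1.89, 1.95 and 1.28 TPM in WT and 3.80, 4.25 and 3.63 TPM in tpt10b, was higher by 0.86 ± 0.13 (adjusted p = 8.10e-05).

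At 24 h 24 members were lower in tpt10b and 2 higher, against 34.8% and 5.76% of all genes. All 4 ER genes, 3 of 4 mitochondrial genes, 8 of 14 cytosolic and nuclear genes and 5 of 12 plastid genes were lower, and after rescaling 2, 2, 3 and 2 of them. The count of lower members was 15 without WT replicate 2 at 24 h. After rescaling 10 were lower and 9 higher (20.5% and 20.6% of all genes). Lower on both scales were BIP2, HSP70G, HSP70A, HSP90A, CPN23, CLPB3, CPN60C, CPN10, CCT2 and CCT10, and higher on both were CPN20 and CCT8. The median member differed by -0.43 beside -0.23 for all genes, and by -0.08 beside 0.04 after rescaling.

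At 48 h 1 member, CPN20, was lower and 0 were higher by limma, where 1.39% of all genes were lower and 5.2% higher. At an unadjusted p under 0.05, 9 members differed, where 26.6% of all genes did. After rescaling CPN20, CPN60B1 and CGE1 were lower (2.46% of all genes lower, 3.05% higher). Leaving out WT replicate 2 or tpt10b replicate 2 or 3 at 48 h gave 0 lower calls, and leaving out WT replicate 1 at 48 h gave 3 lower and 2 higher. With library weights 11 were lower and 4 higher. The share of all genes called was not computed for these leave-one-out and weighted fits, so the counts cannot be set beside it.

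**Figure D5:**
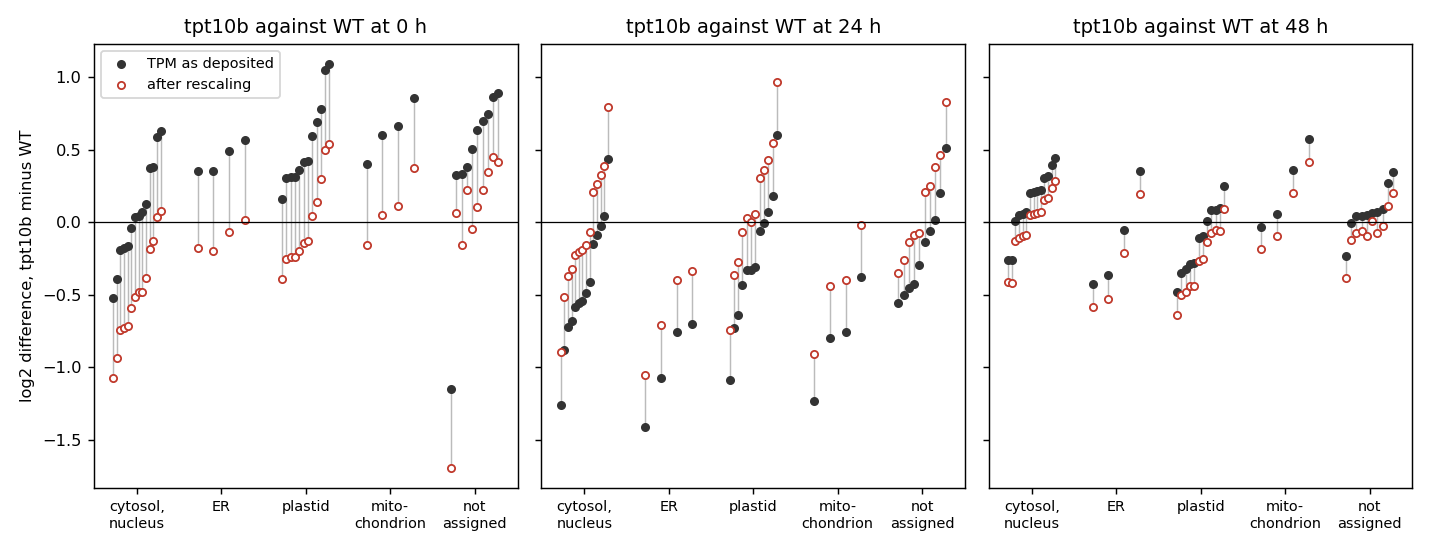
Panels for 0 h, 24 h and 48 h show the log2 difference of each member, tpt10b minus WT, by compartment, in TPM as deposited and after rescaling. The ER genes lie below 0 at 24 h on both scales (-0.70 to -1.41 as deposited), and the 2 scales differ most at 0 h.

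The third question was whether the response to darkness differed between genotypes, tested as an interaction. At 24 h 29 members had a lower and 2 a higher response in tpt10b, against 57.9% and 6.25% of all genes. After rescaling 7 were lower and 13 higher (19.2% and 25.4% of all genes). The 7 lower on both scales were HSP70A, CLPB3, BIP2, HSP70G, CPN60C, HSP70D and CCT10, and CCT8 and HSP70H were higher on both. At 48 h 14 were lower and 2 higher (26.4% and 9.02% of all genes), or 3 lower and 8 higher after rescaling (8.75% and 16.9%). CDJ1, CLPB3 and HSP70B were lower and CCT2 and HSP70H higher on both scales. The count of 14 became 24 without WT replicate 2 at 48 h and 32 with library weights, settings for which the share of all genes was not computed.

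Other folding and degradation genes, listed by symbol, did not all move with the chaperones. Of 69 folding helpers (protein disulfide isomerases, calreticulin, prolyl isomerases, prefoldin and others), 21 rose and 35 fell in WT at 24 h, where 40.6% of all genes rose and 25.8% fell, with a median of -0.38 beside 0.21 for all genes. Of 39 organelle proteases tested 12 rose and 12 fell. After rescaling 14 helpers rose and 40 fell, and 10 proteases rose and 15 fell, beside 31.5% and 34.5% of all genes. Beside the ER chaperones, PDI2, a protein disulfide isomerase, rose in WT by 0.99 ± 0.17 at 24 h (limma adjusted p = 5.59e-05) and by 1.70 ± 0.17 at 48 h (adjusted p = 7.32e-08). CRT2, a calreticulin, rose by 0.71 and 0.69, and ERO1, an oxidase that recharges disulfide isomerases, differed by -0.32 and 0.10, neither past the threshold as deposited, though -0.58 at 24 h passed after rescaling. Among proteases, CLPX1 rose by 2.75 ± 0.14 at 24 h in WT (adjusted p = 4.20e-11) and LON1 by 1.32 ± 0.19 (adjusted p = 9.03e-06), and FTSHI6 fell by 1.33 ± 0.19 (adjusted p = 9.27e-06). At 48 h PDI2 (-0.76) and PDI4 (-0.65) were lower in tpt10b than in WT, and of the proteases CLPX1 (0.55) and CLPS2 (0.90) were higher, calls that were lost after rescaling.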

How the data were processed

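Total RNA of 18 libraries was reverse transcribed from random hexamers, per the labels' protocols. The authors deposited TPM values for 17693 genes, with gene length (another column, in base pairs) and CC-4532 v6.1 identifiers per the file's legend. HISAT2 2.0.5 and StringTie 1.3.3b are named, without roles, per the submitters' processing notes. The counting tool, the strand setting and any filter are not given in the sources used here. Reads from overlapping genes on opposite strands may therefore be mixed.

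Groups and replicate numbers came from the titles. For tpt10b at 48 h the descriptions give replicates 4, 5 and 6 where the titles give 1, 2 and 3, and a batch behind these numbers could not be told apart from that group. Genes with at least 1 TPM in at least 3 of 18 libraries (14731) were fitted as log2(TPM + 1), which understates changes of low genes, with limma 3.58.1 in R 4.3.3. The fit had 1 mean per group, a variance trend and 11 two-sided contrasts, each adjusted by Benjamini and Hochberg over all genes kept, with a threshold of 0.05. It was tested on simulated data.

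The members, lists, contrasts and rule for named genes were chosen with earlier results of these data known. Values per library are given for the main chaperone of each compartment and the 3 largest rises and falls of each contrast (at least 5 TPM). CCT2, CLPB5 and CGE2, the within-library ratios, PFD, PDI2, PDI4, CRT2, ERO1, CLPX1, CLPS2, LON1 and FTSHI6 were singled out after values were seen. Compartments came from the symbols. All 45 locus tags matched RefSeq Chlamydomonas_reinhardtii_v5.5, which served for gene order alone. Sequences were not used here.

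Alternatives were median-of-ratios rescaling, pseudocounts of 0.1 and 5, no filter or a mean of 5 TPM, library weights, a fit of the compared groups alone, a replicate block, and leaving out each replicate. Same-numbered replicates did not deviate together: 6 of 45 correlations of their deviations exceeded 0.1 (range -0.513 to 0.232), so the main fit has no block.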

Additional observations from a re-analysis of the deposited data

Results flagged for a closer look

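Each result here differed between the genotypes in its response to darkness, by the interaction term of the limma fit (adjusted p under 0.05 over all genes, n = 3 libraries per group). A negative value is a smaller rise or a larger fall in tpt10b, in log2 TPM, followed by the value after rescaling.

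At 24 h the values were -2.09 and -1.28 for CLPB4, which lost its call after rescaling (adjusted p = 0.180), -1.85 and -0.93 for HSP70A, -1.78 and -0.87 for CLPB3, -1.76 and -0.87 for BIP2, and -1.64 and -0.73 for HSP70G. They were -1.40 and -0.49 for CPN60C, -1.30 and -0.69 for HSP70D, and -0.89 and -0.48 for CCT10. In the other direction stood CCT8, with 0.83 and 1.73, and HSP70H, with 1.66 and 2.52. HSP70H was already lower in tpt10b at 0 h, so its smaller fall began from a lower level. CCT8 also began lower in tpt10b at 0 h (-0.39, or -0.94 after rescaling). Of the genes with negative values, CLPB3 began higher in tpt10b at 0 h on both scales (1.05, or 0.50 after rescaling). HSP70A, HSP70G, CPN60C, HSP70D and CCT10 began higher as deposited, calls lost after rescaling. BIP2 and CLPB4 had no call at 0 h as deposited.

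At 48 h the values were -1.38 and -0.98 for CDJ1, -0.96 and -0.56 for CLPB3, -0.89 and -0.49 for CPN20, which lost its call after rescaling (adjusted p = 0.0917), and -0.80 and -0.40 for HSP70B. CCT2 had 0.84 and 1.24, and HSP70H had 1.22 and 1.62. CDJ1 and CLPB3 were higher in tpt10b at 0 h on both scales, and CCT2 and HSP70H were lower. CPN20 and HSP70B were higher there as deposited, calls lost after rescaling.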

How the results depend on the processing

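Rescaling and library weights moved several counts by over 1.5 times. Between the genotypes, rescaling gave 4 higher and 11 lower members for 0 h, 9 and 10 for 24 h, and 3 lower ones for 48 h. It gave 5 rises from 24 h to 48 h in WT, 20 rises and 12 falls in tpt10b at 24 h against 0 h, 24 falls from 24 h to 48 h, 13 higher and 7 lower interactions at 24 h and 8 and 3 at 48 h. Library weights gave 4 higher and 11 lower in tpt10b at 48 h, 5 rises from 24 h to 48 h in WT and 32 lower interactions at 48 h. A fit of the compared groups alone gave 0 lower at 48 h. The causes were not tested. Shares of all genes called were computed for TPM as deposited and after rescaling alone, so counts under the other settings have no share beside them.

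Leaving out 1 replicate at a time gave, for tpt10b against WT, 17 to 28 higher and 2 to 3 lower at 0 h, 1 to 3 higher and 15 to 21 lower at 24 h, and 0 to 2 higher and 0 to 3 lower at 48 h. In WT it gave 2 to 5 rises from 24 h to 48 h, and 12 to 24 lower interactions at 48 h.

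Of 290 single-gene calls, rescaling left 201 past the threshold in the same direction, took 71 below it and turned 18. At 0 h BIP1 turned to -0.064, CPN60A to -0.20, CGE1 to -0.13, CPN20 to -0.14, CLPB1 to -0.13, CPN11 to -0.25, DNJ1 to -0.048 and CPN60B1 to -0.24. HSP70B turned to 0.033 between genotypes at 24 h. In tpt10b at 24 h against 0 h CPN60C turned to 0.10, CCT11 to 0.14, CLPB5 to 0.095 and CPN11 to 0.33. Among interactions at 24 h CPN60B2 turned to 0.17, CCT1 to 0.29, HSP90C to 0.010, CGE2 to 0.012 and DNJ1 to 0.43. No other alternative turned a call. Pseudocounts of 0.1 and 5 took 3 and 2 of the 290 below the threshold.

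The replicate block, with numbers that did not pair the samples, moved no count by over 1.5 times (24 members higher in tpt10b at 0 h, for example). It took 4 single-gene calls below the threshold: CPN60B1 at 0 h (adjusted p = 0.0536), CPN60B2 at 24 h between genotypes (0.0641) and in tpt10b at 48 h against 0 h (0.0539), and the CCT1 interaction at 24 h (0.0575). HSP70F, under 1 TPM in all libraries, was too scarce to test.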
